A study of Mus musculus with 6 samples.

Results

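The cold-shock domain genes Ybx1, Ybx2, Ybx3, Carhsp1 and Csdc2 were followed in mouse cortical cells in which Ybx1 was knocked down. They were taken by symbol from the deposited expression table, where all 5 were found among 17920 genes, and all 5 passed the filter on low counts that left 13669 genes for testing. The comparison asked whether the transcripts of the other cold-shock domain genes were higher when Ybx1 was lower. RNA-seq was done on 3 libraries labelled WT and 3 labelled KD, all E13.5 (the embryonic day of the cortex). According to the methods of the study, cortical cells of that stage were dissociated, cultured on poly-D-lysine and laminin in neurobasal medium with B27, and infected with pLKO.1-Puro lentivirus. The WT cells carried a control hairpin and the KD cells a hairpin against Ybx1, and both groups were treated with puromycin, which kills cells that did not take up the virus, before RNA was extracted. The series text speaks of a deletion and the sample labels name brain tissue, the mouse strain is not given in the sources used here, and neither is which of the 2 listed Ybx1 hairpins was used for these libraries. Replicates are described as biological and as sequenced in 3 batches, but the labels do not tie a replicate number to a batch.

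The cold-shock domain is a small fold, shared with bacterial cold-shock proteins, that binds single-stranded RNA and DNA. Ybx1 (YB-1) is the widely expressed Y-box protein, which packages mRNA in the cytoplasm, regulates its translation and stability, and has been described as a reader of 5-methylcytosine (m5C) in mRNA. Its paralogs Ybx2 (MSY2, best known from germ cells, where it stores and silences mRNA) and Ybx3 (MSY4 or CSDA, an mRNA-binding repressor) have nearly the same cold-shock domain. Carhsp1 (CRHSP-24), a calcium-regulated phosphoprotein, and Csdc2 (PIPPin), an RNA-binding protein known from brain, form a separate pair of small proteins with the same kind of domain.

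The site of the knockdown is shown first, with the nearest stretches of the Y-box paralogs, because a hairpin that also matched a paralog would change what its level means. The hairpins of the study match 22 bases in exon 7 of 8 of an annotated Ybx1 transcript, in the coding sequence, at chr4:119279080-119279101 on the minus strand of GRCm38. The bases that both hairpins cover are in capitals in the Ybx1 line, and in the other lines capitals mark the bases that differ from Ybx1. Sequences are from GENCODE transcripts and are written 5′ to 3′ in the sense of the mRNA.

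Ybx1 target site: gGTATCGCCGAAACTTCAATTa
Ybx2 nearest coding window: ggCGCcCAcCaCCcttcTTCta
Ybx3 nearest coding window: gAtTCcgAcgTCCctAcaaCta

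The nearest coding window within a single exon differed from the site at 11 of 22 bases in Ybx2 (exon 5, chr11:69940082-69940103, plus strand) and at 9 in Ybx3 (exon 8, chr6:131368438-131368459, minus strand). The nearest coding windows of Carhsp1 and Csdc2 differed at 11 bases each. When every annotated transcript was searched, including untranslated and unspliced parts, the closest match had 9 mismatches in Ybx2, 7 in Ybx3, 10 in Carhsp1 and 9 in Csdc2. Of 13364 tested genes with an annotated transcript, Ybx1 left out, 5.47% had a match with at most 7 mismatches and 78.6% one with at most 9, and none had 4 or fewer. By this count Ybx3 was among the closest 5.47% of genes, and none of the 4 members other than Ybx1 had fewer than 7 mismatches. Only mismatches over all 22 bases were counted, and shorter matches were not searched. Whether the hairpins acted on these members was not tested.

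Ybx1 itself, at chr4:119277327-119296265 on the minus strand, had 10189, 9963 and 10484 estimated counts in the WT libraries and 1635, 1511 and 2620 in the KD libraries. The groups lay far apart, and KD replicate 3 kept the most Ybx1. In TPM (the deposited unit that divides by transcript length and scales every library to the same sum), the WT libraries held 641, 630 and 687 and the KD libraries 106, 100.2 and 168, so that the KD libraries were at 16.3%, 15.4% and 25.7% of the WT mean. Ybx1 fell by 2.43 on the log2 scale (SE 0.18, 95% interval -2.84 to -2.03, n = 3 per group, edgeR quasi-likelihood test with Benjamini-Hochberg adjustment, adjusted p = 0.000182), to 18.5% ± 5.86 (SD) of the WT mean in CPM (counts scaled to library size, without division by length). Between libraries of the same number the log2 differences were -2.65, -2.74 and -2.04. In these bulk libraries, fewer cells of a type and less RNA per cell cannot be told apart.

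None of the other members was called higher, and the only other call was a lower level of Csdc2. Of the 5 members, the target included, 0 rose and 2 fell, beside 12% of all tested genes called higher and 11.9% called lower, or 24% in either direction. At an unadjusted p under 0.05, edgeR again gave 0 members higher and 2 lower, beside 2591 higher and 2594 lower of the 13669 tested genes. DESeq2, limma-voom and limma on TPM each gave 0 members higher after adjustment.

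**Figure D1:**
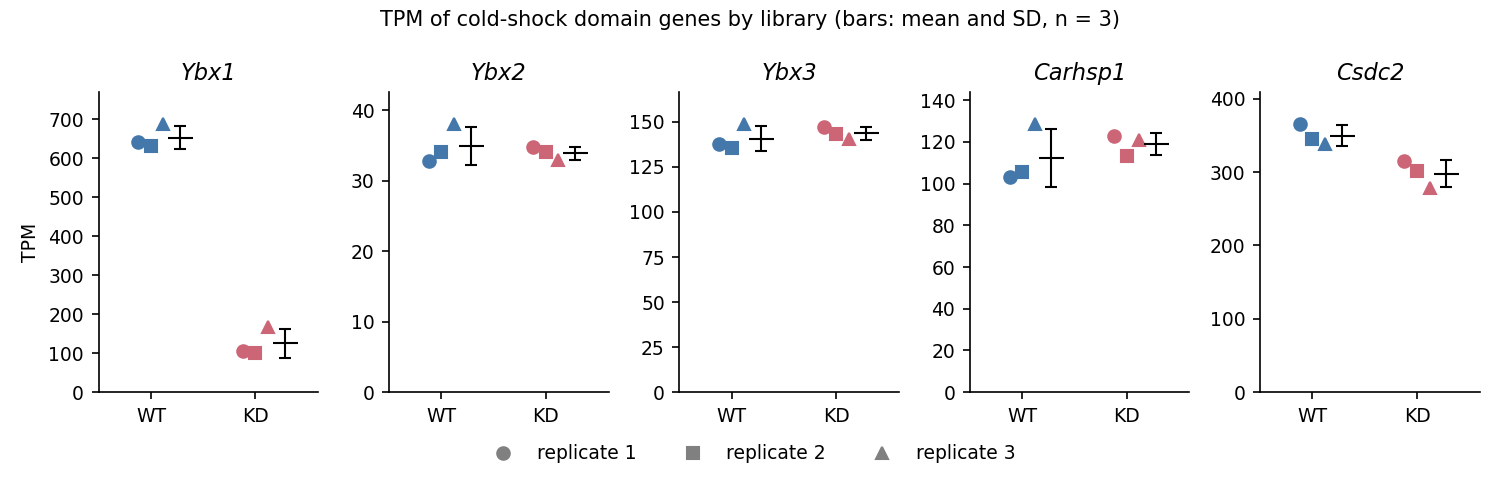
TPM of each cold-shock domain gene in every library, with WT in blue, KD in red, symbols for the replicate number, and the mean and SD (n = 3) in black; each panel has its own linear axis from 0. Ybx1 drops from 630 to 687 TPM in WT to 100.2 to 168 in KD, the Csdc2 groups are close together without overlap, and the groups of Ybx2, Ybx3 and Carhsp1 overlap.

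Ybx3, the more abundant of the Y-box paralogs (chr6:131364858-131388450, minus strand), had 1730, 1695 and 1794 counts in WT and 1792, 1709 and 1723 in KD. These unscaled KD values lay inside the range of the WT values. In CPM the WT libraries held 104.62 to 111.7 and the KD libraries 107.7, 104.27 and 104.44. The log2 fold change was -0.02 (SE 0.05, adjusted p = 0.777 by edgeR), and its 95% interval corresponds to a change of -8.83% to 6.36%. In TPM the WT mean was 141 ± 7.07 and the KD mean 144 ± 3.42 (SD, n = 3). The sign of this small difference thus turned with the scale, and no setting tried called it.

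Ybx2 (chr11:69935805-69941604, plus strand) was the least abundant member, with 466, 513 and 555 counts in WT and 477, 460 and 457 in KD. WT replicate 1 lay among the KD libraries, so the groups overlapped. The log2 fold change was -0.16 (SE 0.08, 95% interval -0.34 to 0.02, adjusted p = 0.172 by edgeR), and the upper end of the interval corresponds to a level 1.29% higher in KD. TPM gave a smaller difference, with 34.9 ± 2.73 in WT and 33.9 ± 0.908 in KD (SD, n = 3), or 97.0% of the WT mean against 89.3% in CPM. The transcript length implied by the ratio of counts to TPM moved with it. Relative to all genes it was 0.607 in WT replicate 1 and between 0.604 and 0.609 in the KD libraries, but 0.648 and 0.647 in WT replicates 2 and 3. For the other 4 members this length changed by less than 0.1% between groups, and the part of the Ybx2 isoforms in its result was not tested.

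The germ cell markers were near 0 in every library, although Ybx2 is best known from germ cells. Dazl and Ddx4, which mark germ cells, lay between 0.61 and 1.36 TPM, and the protamine Prm1, a sperm mRNA that Ybx2 binds, had at most 2 counts in a library. The 3 germ cell markers in the table summed to 1.83 to 4.49 TPM in WT and 1.47 to 3 TPM in KD, against 32.8 to 38.0 TPM of Ybx2 over all libraries.

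Csdc2 (chr15:81936759-81950941, plus strand) had 6663, 6255 and 5920 counts in WT and 5540, 5204 and 4981 in KD. Every KD library was below every WT library, as was the case for 20.6% of all tested genes. The log2 fold change was -0.28 (SE 0.05, 95% interval -0.41 to -0.16, adjusted p = 0.00718 by edgeR), which is a change of -17.8% with an interval from -24.5% to -10.6%. In CPM, the log2 differences between libraries of the same number were -0.28, -0.28 and -0.29, beside -2.65, -2.74 and -2.04 for Ybx1. A link with the depth of the Ybx1 knockdown was not tested. In TPM the WT libraries held 365, 345 and 338 and the KD libraries 315, 301 and 278. With both replicate 2 libraries left out the fold change was again -0.28, but with 2 libraries per group the call was lost (adjusted p = 0.119).

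Carhsp1, the closest relative of Csdc2 (chr16:8658580-8672153, minus strand), did not share this difference. It had 2191, 2232 and 2622 counts in WT and 2520, 2276 and 2517 in KD, with WT replicate 3 the highest of the 6. The log2 fold change was 0.03 (SE 0.08, adjusted p = 0.82 by edgeR), with an interval of -9.91% to 15.6%, the widest upward range among the 4 members other than Ybx1. Its estimate turned to -0.03 without WT replicate 1 and to -0.00493 without WT replicate 2, and rose to 0.13 without WT replicate 3, never past the threshold. Pmm2, a sugar phosphate enzyme gene that overlaps Carhsp1 on the opposite strand, was higher in KD (log2 fold change 0.36, adjusted p = 0.0135 by edgeR) at 18.8 to 21.1 CPM in WT and 24.5 to 27.2 CPM in KD. Whether the counting used strand is not given in the sources used here, and the part of Pmm2 reads in the Carhsp1 values was not tested.

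**Figure D2:**
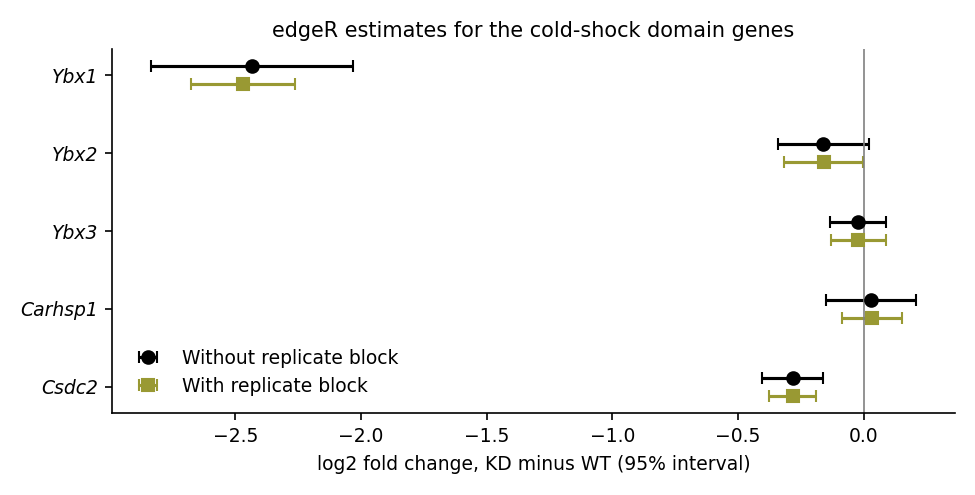
Log2 fold change of KD against WT (horizontal axis) for the 5 cold-shock domain genes, from edgeR without (black circles) and with (olive squares) the replicate number as a block; bars are 95% intervals. Ybx1 lies at -2.43, Csdc2 at -0.28 with an interval below 0, and neither Ybx3 nor Carhsp1 has an interval that leaves 0 in either fit.

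The replicate numbers were taken to pair the libraries, which no label states. With the number as a block the 5 calls stayed as they were. In the block fit the Ybx2 estimate was -0.16 (95% interval -0.32 to -0.0018, adjusted p = 0.106 by edgeR), the Ybx3 estimate -0.02 and the Carhsp1 estimate 0.03. Over the pairs the differences of Ybx2, Ybx3 and Carhsp1 were highest for replicate 1 (0.02, 0.04 and 0.19) and lowest for replicate 3 (-0.32, -0.10 and -0.10). Ybx1 was lowered least in replicate 3 (-2.04) but most in replicate 2 (-2.74), where these differences lay in between. With 3 pairs this is a description only.

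The levels of the members can be set beside each other in TPM. In WT the order was Ybx1 (653 ± 30.2), Csdc2 (349 ± 14.2), Ybx3 (141 ± 7.07), Carhsp1 (112 ± 14.0) and Ybx2 (34.9 ± 2.73; mean ± SD, n = 3), and no library of one gene reached the range of its neighbour. The closest neighbours were Ybx3, at 136 TPM or more, and Carhsp1, at 129 TPM or less. In KD, Csdc2 came first (298 ± 18.5). Ybx3 (144 ± 3.42), Ybx1 (125 ± 37.5) and Carhsp1 (119 ± 5.20) followed in the order of their means. Ybx1 had no fixed place beside Ybx3 and Carhsp1, since in KD replicate 3 it lay above Ybx3 and in the other KD libraries below Carhsp1. Ybx2 (33.9 ± 0.908) was last. Among the 17920 genes ordered by mean TPM, Ybx1 moved from place 216 to place 1502, Csdc2 from 422 to 505, and Ybx3 from 1293 to 1280.

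**Figure D3:**
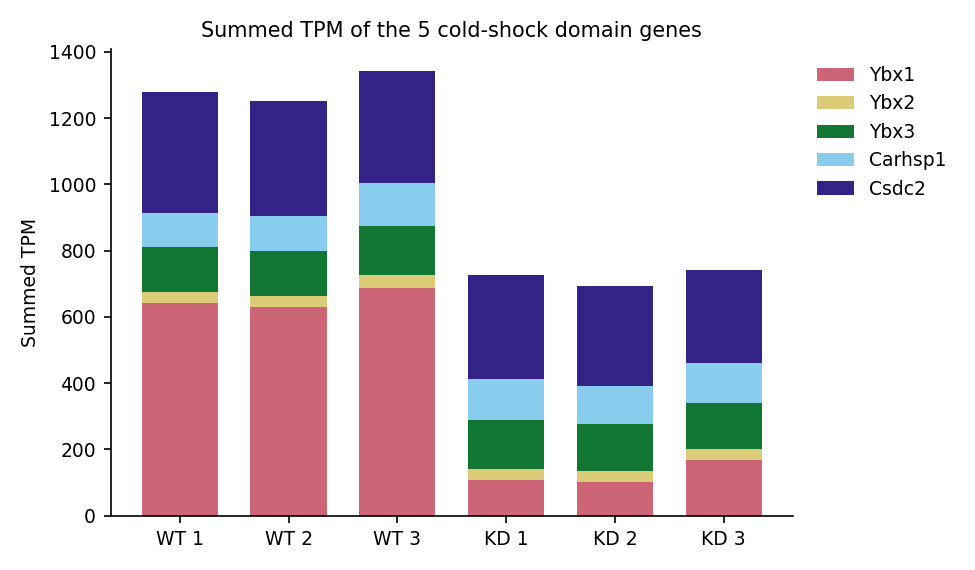
Summed TPM of the 5 cold-shock domain genes in each library (stacked bars from 0, 1 colour per gene). The total falls from 1251 to 1340 TPM in WT to 692 to 740 in KD, mostly in the Ybx1 part.

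Summed over the Y-box genes Ybx1, Ybx2 and Ybx3, the WT libraries held 811, 800.0 and 874 TPM and the KD libraries 288, 277 and 341, which is 36.5% of the WT mean. The mean difference of Ybx1 was -528 TPM, while Ybx2 and Ybx3 together differed by 1.86 TPM between the group means (176 ± 9.66 in WT and 177 ± 4.30 in KD). In CPM the mean of Ybx2 was 31.5 in WT and 28.1 in KD, and that of Ybx3 107 in WT and 105 in KD. The sign of their joint difference thus turned with the scale. All 5 members summed to 1290 ± 45.8 TPM in WT and 719 ± 25.0 TPM in KD, or 55.7%. Without Ybx1 the other 4 summed to 638 ± 16.5 TPM in WT and 594 ± 23.9 TPM in KD, a mean difference of -43.1 TPM of which Csdc2 alone made -51.4. Ybx1 supplied 50.6% of the 5-gene total in WT and 17.3% in KD, and Csdc2 27.1% in WT and 41.5% in KD. These sums are descriptions without a test.

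Among the related genes taken with the members, 13 of 30 tested were called higher and 4 lower in KD, beside 12% and 11.9% of all tested genes. Their median log2 fold change was 0.15, against -0.00131 over all genes. The list was chosen with earlier results of these data known, so neither figure tests whether related genes rose more often than others. The number called higher was 9 without WT replicate 2, 9 without KD replicate 1 and 8 without KD replicate 2. Without both replicate 2 libraries 2 were called higher and 1 lower.

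Of the other cold-shock domain genes and a partner, 0 of 2 tested were called by edgeR, with 0 higher and 1 lower (Strap) at an unadjusted p under 0.05. At that threshold 2591 of all 13669 tested genes were higher and 2594 lower. Lin28b, a cold-shock domain protein that blocks let-7 maturation, had a log2 fold change of -0.17 (95% interval -0.46 to 0.11) and Strap, a partner protein of this group, one of -0.12 (-0.22 to -0.02, adjusted p = 0.0826), which was called only with upper quartile scaling (adjusted p = 0.0448). Lin28a was below the filter on low counts.

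Of the proteins that bind the coding-region stability element together with Ybx1, 1 of 4 was called. Hnrnpu, a nuclear RNA- and chromatin-binding protein, rose from 426 to 449 CPM in WT to 507 to 564 in KD (log2 fold change 0.31, SE 0.05, adjusted p = 0.00402 by edgeR). The helicase Dhx9 was called only with the replicate block (log2 fold change 0.15, adjusted p = 0.0662 without the block and 0.0297 with it), with total counts, on TPM and without KD replicate 3 (adjusted p = 0.0316). Syncrip (0.06) and Igf2bp1 (-0.05) were not called.

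Of the 14 cytoplasmic mRNP proteins, which package, store or repress mRNA, 7 were higher and 2 lower, beside 12% and 11.9% of all tested genes. Lsm14a, a P-body protein, rose by 36.9% (log2 fold change 0.45, SE 0.06, adjusted p = 0.00191 by edgeR), from 55.4 to 62.9 CPM in WT to 77.1 to 82.4 CPM in KD. Serbp1, an mRNA- and ribosome-binding protein whose estimated counts were partly fractional, and G3bp1, a core protein of stress granules, had log2 fold changes of 0.30 and 0.26 (adjusted p = 0.00163 and 0.00704 by edgeR). Purb, a single-stranded nucleic acid-binding protein, moved the most in the other direction, from 198 to 220 CPM in WT to 110 to 128 CPM in KD (log2 fold change -0.80, SE 0.07, adjusted p = 0.000308 by edgeR). The poly(A)-binding proteins went opposite ways, with Pabpc1 at -0.22 (adjusted p = 0.0144) and Pabpc4 at 0.17 (adjusted p = 0.0324 by edgeR). On TPM, Pabpc1 had an adjusted p of 0.0672.

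Several smaller calls in this group were lost in fits with 1 library fewer, where the log2 fold changes stayed at 0.14 to 0.18 for Pabpc4, 0.13 to 0.15 for Caprin1, 0.16 to 0.18 for Fmr1 and 0.19 to 0.27 for Fxr2. Pabpc4, Caprin1 (0.14, a G3bp1 partner) and Fmr1 (0.17, the fragile X protein) each lost the call when any library but WT replicate 3 was left out, with adjusted p between 0.0577 and 0.119. DESeq2 did not call Pabpc4 (adjusted p = 0.0571) or Fmr1 (adjusted p = 0.061), and upper quartile scaling did not call Caprin1 (adjusted p = 0.0529). Fxr2 (0.23, a relative of Fmr1) lost it when WT replicate 2 or either of KD replicates 1 and 2 was left out (adjusted p from 0.0517 to 0.0612). Pura, the relative of Purb, had a log2 fold change of 0.23 and was called only without WT replicate 3 (adjusted p = 0.0312). Ddx6, Lsm14b, Fxr1 and Elavl1 lay between -0.00152 and 0.07 and were not called.

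The cold-inducible RNA-binding proteins, which have an RNA recognition motif and no cold-shock domain, were both higher. Cirbp had 83.1 to 86.0 CPM in WT and 98.1 to 106 in KD (log2 fold change 0.26, SE 0.05, adjusted p = 0.00853 by edgeR). Rbm3 had 170 to 181 CPM in WT and 203 to 216 in KD (log2 fold change 0.23, SE 0.05, adjusted p = 0.0131), and without KD replicate 2 its adjusted p was 0.0591. Among the m5C genes, 0 of 3 were called by edgeR, with 1 higher at an unadjusted p under 0.05, the nuclear reader Alyref (0.18, adjusted p = 0.131). Of all 13669 tested genes, 2591 were higher at that threshold. Alyref was called on TPM (adjusted p = 0.0418). The methyltransferases Nsun2 (0.11) and Nsun6 (-0.20) were not called in any setting.

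mRNAs known from other work to be bound by a paralog moved in both directions. Of 5 tested, 3 were higher and 2 lower, beside 12% and 11.9% of all tested genes. This list too was chosen with earlier results of these data known. Slc7a5 and Slc3a2, the subunits of the large neutral amino acid transporter and described as Ybx3-bound, changed by -29.7% and -21.6%. Slc7a5 had 142, 161 and 133 CPM in WT and 95.4, 106 and 105 CPM in KD (log2 fold change -0.51, SE 0.08, adjusted p = 0.00265 by edgeR). For Slc3a2 the log2 fold change was -0.35 (adjusted p = 0.0182). Leaving out KD replicate 1 gave -0.32 (adjusted p = 0.056) and leaving out KD replicate 2 gave -0.36 (adjusted p = 0.0582), and the estimated counts of both genes were partly fractional. Ybx3 itself was not called, as given above.

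The listed histone mRNAs described as Csdc2-bound were all higher, and a link with the lower Csdc2 was not tested. H1f0, the linker histone of non-dividing cells, rose by 30.6% (log2 fold change 0.38, SE 0.07, adjusted p = 0.00475 by edgeR). H3f3b and H3f3a, which both encode the replacement histone H3.3, had log2 fold changes of 0.46 and 0.34 (adjusted p = 0.000982 and 0.00106). H3f3b had 562 to 587 CPM in WT and 736 to 831 CPM in KD, and the H3f3a counts were partly fractional. Tnf, described as bound by Carhsp1, had 4 or 5 counts in each WT library and 8 in each KD library and was below the filter.

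**Figure D4:**
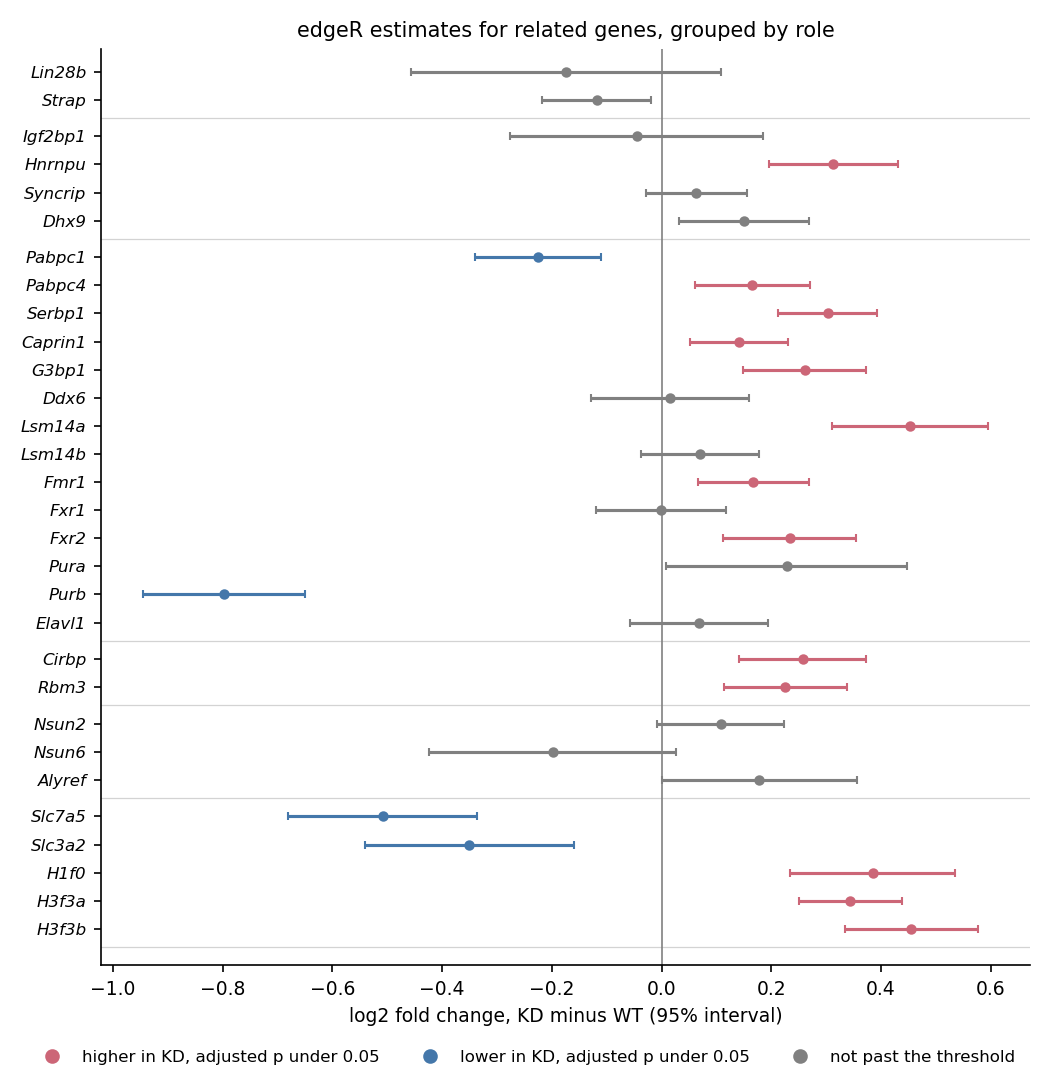
Log2 fold change of KD against WT with its 95% interval (edgeR) for the 30 related genes tested, separated by grey lines into cold-shock domain genes and a partner, the coding-region stability complex, cytoplasmic mRNP proteins, cold-inducible proteins, m5C genes and mRNAs bound by a paralog, from top to bottom. Red marks the 13 called higher, blue the 4 called lower and grey the rest.

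Some cell type markers also differed between the groups. The 6 cortical progenitor markers used here summed to 488 to 537 TPM in WT and 542 to 732 TPM in KD. The largest part was Vim, and on TPM the median log2 fold change of all genes was itself 0.05. By edgeR 2 of 6 (Pax6 and Hes1) were called higher, while Vim (0.21), Sox2 (0.23), Nes (0.16) and Emx1 (0.25) were not called. Nes in KD replicate 3 (30.5 TPM) lay below every WT library. The intermediate progenitor markers Eomes and Neurog2 summed to 8.61 to 14.4 TPM in WT and 31.6 to 49.1 TPM in KD, and both were called. The 3 neuron markers (Tubb3, Dcx and Neurod6) overlapped in their sum, at 1869 to 2391 TPM in WT and 1998 to 2488 TPM in KD, most of it Tubb3. Of them Dcx was called higher (log2 fold change 0.29, adjusted p = 0.00518 by edgeR, 139 to 159 TPM in WT and 183 to 195 in KD), while Neurod6 (0.65, adjusted p = 0.0584) and Tubb3 (-0.06) were not called. Markers of interneurons, at 230 to 379 TPM, and of the oligodendrocyte lineage, at 127 to 188 TPM, were present in every library. Among the interneuron markers Dlx2 was called higher (log2 fold change 1.23, adjusted p = 0.000959 by edgeR, 24.7 to 30.7 TPM in WT and 58.2 to 85.1 in KD), while Gad1 (-0.25) and Gad2 (0.07) were not called, nor was any of the 3 oligodendrocyte lineage markers. The microglia, endothelium and blood markers, summed separately for each cell type, reached at most 1.86 TPM in any library. The astrocyte markers Aqp4 and Gfap summed to 9.40 to 13.9 TPM in WT and 8.07 to 10.2 TPM in KD, with neither called. The mesenchyme and pericyte markers summed to 2.12 to 3.37 TPM in WT and 3.37 to 4.34 TPM in KD, of which Pdgfrb was called higher (log2 fold change 0.72, adjusted p = 0.0318 by edgeR) and Col1a1 (-0.60) was not. The part of these shifts in the Csdc2 difference and in those of the related genes was not tested.

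The genes whose log2 CPM ran most alike with each member over the 6 libraries were sought among 11438 genes with a mean of at least 5 CPM. For Ybx1 they were Cdv3, Lman1 and Syt5, with Pearson's r between 0.998 and 0.9997 and log2 fold changes of -0.48, -0.25 and -0.41, and 1094 genes in all had an r over 0.9. For Csdc2 they were Tmem38a, Bmp7 and Fam234b (log2 fold changes -0.31, -0.78 and -0.20), with 737 genes over 0.9. For the members that were not called fewer genes passed that r, with 62 for Ybx2, led by Tst (r = 0.988), 28 for Ybx3, led by Yeats2 (r = 0.985), and 35 for Carhsp1, led by Slc27a1 (r = 0.995). The 6 points fall into 3 WT and 3 KD libraries, so a gene that differs between the groups is alike to many others that differ in the same direction.

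The members could be counted apart from each other. The longest exact stretch shared by their transcripts was 26 bases, between Ybx1 and Ybx2, followed by 20 between Ybx1 and Ybx3, 19 between Carhsp1 and Csdc2 and 18 between Ybx2 and Ybx3. All 5 had whole estimated counts in every library. Ybx1 shared stretches of at least 50 bases with 6 annotated processed pseudogenes, none of which has a row under its GENCODE name in the deposited table. The paper lists a pseudogene of Ybx1 among the transcripts lower in all its knockout and knockdown data, so a row under another name may have been missed. Reads from such pseudogenes cannot be told apart from Ybx1 reads in those stretches. Carhsp1 shared such stretches with 1 pseudogene, and Csdc2 with an unspliced transcript of Pclaf.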

How the data were processed

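RNA-seq of 3 WT and 3 KD libraries was analysed. The authors purified mRNA and sequenced it on the DNBSEQ platform. The submitters' processing notes name HISAT2 2.2.1, Bowtie2 2.4.5, RSEM 1.3.1 and the GRCm38 (mm10) build, with no roles. The annotation is not given in the sources used here. Deposited estimated counts per gene (RSEM expected counts, not whole for genes that share reads) and deposited TPM values, scaled by the authors to transcript length and depth, were used. The other 12 data columns, FPKM values and group averages, were not used. Libraries held 16294635 to 16497505 estimated counts.

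Estimated counts were rounded and tested with edgeR 4.0.16 (R 4.3.3): TMM scaling, filterByExpr with a minimum count of 10, its quasi-likelihood F-test between KD and WT, and Benjamini-Hochberg adjustment over 13669 genes, with a threshold of 0.05. SE is the log2 fold change divided by the root of F. CPM used TMM-scaled totals. Groups and replicate numbers came from sample titles. Deviations from the group means of same-numbered libraries correlated at 0.35, 0.32 and 0.18, and of other pairs at -0.28 to -0.02, so the numbers were taken to pair the libraries and they also entered as a block in an added fit. No pair of replicates agreed within sampling noise (chi-square per degree of freedom of 4.59 to 9.05). P-values set the difference between the groups against the spread between these libraries, which without the block includes spread between the pairs. Alternatives were other scalings, filters and tools (DESeq2 1.42.0, limma 3.58.1 by voom and on log2(TPM + 1) and log2(TPM + 0.1)), unrounded counts and left-out libraries. The scripts were tested on simulated data.

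Genes named are the members, related genes listed by role, and for each member the 3 genes with the highest correlation of log2 CPM. The members and lists were chosen with earlier results of these data known, and 1 related gene and 1 progenitor marker are not reported here. The hairpin site was read from GENCODE M21 transcripts at the position given by the hairpins in the methods, and gene positions are from RefSeq on GRCm38.p6.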

Additional observations from a re-analysis of the deposited data

How the results depend on the processing

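Ybx1 was called lower under all 18 alternatives (log2 fold change -2.72 to -2.29) and Csdc2 under 17 (-0.32 to -0.23). The exception was leaving out both replicate 2 libraries, where Csdc2 stood at -0.28 (adjusted p = 0.119 by edgeR), which leaves 1 member called lower, 2 related genes higher, 1 related gene lower, and 135 higher and 93 lower of all genes. This fit has 2 libraries per group. Ybx2, Ybx3 and Carhsp1 were called in none of the 18, and no member was called higher in any. Adjusted p ranged over the alternatives from 0.0642 to 0.70 for Ybx2, 0.57 to 0.999 for Ybx3 and 0.157 to 0.977 for Carhsp1.

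The replicate block gave 2539 genes higher and 2470 lower, against 1646 and 1631 without it, with Ybx1 at -2.47 and Csdc2 at -0.28. It added the call of Dhx9 and changed no other call of a member or related gene. At an adjusted p under 0.01, 629 genes were higher and 634 lower, and at a fold of at least 2, 55 and 49. On TPM with a pseudocount of 1 or 0.1, 1072 and 1063 were lower. The share of calls that were higher was 50.2% with TMM, 43.0% with upper quartile scaling, 57.9% with total counts and 65.9% to 66.1% on TPM, and the median of all genes lay between -0.02 (upper quartile scaling) and 0.05 (TPM) over these, against -0.00131 with TMM.

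Signs near 0 turned. Ybx3 was 0.00015 with total counts and 0.0303 and 0.0305 on TPM with a pseudocount of 1 and 0.1, Igf2bp1 was 0.00225 and 0.00342 on TPM, and Ddx6 was -0.00526 with upper quartile scaling and -0.0531 without both replicate 2 libraries. Fxr1 was 0.000114 with RLE size factors, 0.0203 with total counts, 0.00472 without a filter, 9.02e-05 with DESeq2 and 0.064 and 0.0647 on TPM. The cause was not tested.

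Leaving out single libraries gave -0.0391 to 0.00956 for Ybx3, -0.0276 to 0.126 for Carhsp1, -0.0191 to 0.0781 for Ddx6 and -0.0303 to 0.0258 for Fxr1. The counts of genes ran from 779 to 1612 higher and 797 to 1583 lower, lowest without WT replicate 2 (779 and 797) and KD replicate 2 (884 and 849), and without KD replicate 1 1077 were lower. Related genes called higher numbered 8 to 14, with 9 without WT replicate 2 or KD replicate 1 and 8 without KD replicate 2. TPM in KD as a percent of WT ran from 94.1% to 101% for Ybx2, 100.3% to 105% for Ybx3 and 102% to 114% for Carhsp1, and CPM gave 89.3% for Ybx2 and 98.5% for Ybx3.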
